A study of Mus musculus with 11 samples.

Results

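Fatty acid oxidation was followed through 9 genes in mouse pancreatic islets: Pdk4, Ppara, Cpt1a, Cpt2, Acadm, Acadl, Acadvl, Hadha and Hadhb. They were taken by symbol from a table of 32285 genes, and all 9 had a row there and passed the filter on low counts. The islets came from mice aged 16 weeks after 4 weeks of high-fat diet, which all groups shared. They received 10 µM azoramide, a compound described as acting on the unfolded protein response of the endoplasmic reticulum, or the solvent DMSO, for 24 h. Control islets gave 3 libraries with DMSO and 3 with azoramide. Islets labelled βZKO_Mip, a beta cell knockout of Zzef1 whose littermates were the controls, gave 2 libraries with DMSO and 3 with azoramide. What drives the deletion, beyond the word Mip, is not given in the labels. Islets of 3 or more mice of a genotype were pooled per sample, and nothing says whether DMSO and azoramide samples came from the same mice, so p-values measure the spread between these samples.

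Sequencing gave 16832800 to 19501813 counts per library over 17687 to 17999 genes. Zzef1 itself was read in all 11 libraries, at 97.2 ± 12.2 CPM (SD, n = 3) in control and 81.5 ± 2.93 CPM (SD, n = 2) in labelled knockout islets with DMSO, and at 66.6 ± 2.02 (SD, n = 3) and 72.8 ± 4.53 CPM (SD, n = 3) with azoramide. CPM is the normalised count, scaled to library size. Since Zzef1 was lower in labelled knockout than in control islets with DMSO and higher with azoramide, and neither difference passed (adjusted p = 0.999 and 0.968), these libraries are called labelled knockout throughout. The islet label was checked against markers: all 8 beta cell and all 6 alpha cell markers were read in every library, while markers of white and brown adipocytes summed to at most 1.27 CPM. Acinar markers, all 9 read in every library, summed to 622 to 5390 CPM with DMSO and 1100 to 6320 CPM with azoramide, and varied from 969 to 5390 CPM within control DMSO islets. Ductal markers summed to 672 to 721 and 778 to 928 CPM, and hepatocyte markers to 60.1 to 91.5 and 98 to 125 CPM. Alpha cell markers summed to 14300 to 16400 CPM with DMSO and 23600 to 27700 CPM with azoramide, and beta cell markers to 130000 to 142000 and 141000 to 193000 CPM. In such whole-islet RNA, fewer cells of a type and less RNA per cell cannot be told apart. The part of these shifts in the results that follow was not tested.

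Mitochondria burn long-chain fatty acids in steps. The carnitine shuttle, which begins with Cpt1a on the outer membrane and ends with Cpt2 on the inner membrane, brings the acyl chains in. Acyl-CoA dehydrogenases of different chain length then start each round of shortening, and the trifunctional protein, made of Hadha and Hadhb, completes it for long chains. PPAR alpha, the product of Ppara, is a nuclear receptor that binds fatty acids and switches on many of these genes. Pdk4 is one of its classical targets: its kinase phosphorylates and switches off the pyruvate dehydrogenase complex, which holds glucose carbon back from the citric acid cycle while fat is burnt. In beta cells this balance matters because pyruvate metabolism drives insulin secretion.

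Promoter sequence is shown for the member with the greatest rise, the member that fell, and 1 gene of the head-to-head pair that rose together. Each window runs from 250 bases before to 50 bases after the RefSeq start in GRCm38.p6, 300 bases in all, 5′ to 3′ on the gene's strand. Capitals mark the letters AGGTCA (a nuclear receptor site is built from a pair of these), CCAAT or GGGCGG (a GC box) on either strand.
Pdk4, chr6:5496229-5496528, minus strand: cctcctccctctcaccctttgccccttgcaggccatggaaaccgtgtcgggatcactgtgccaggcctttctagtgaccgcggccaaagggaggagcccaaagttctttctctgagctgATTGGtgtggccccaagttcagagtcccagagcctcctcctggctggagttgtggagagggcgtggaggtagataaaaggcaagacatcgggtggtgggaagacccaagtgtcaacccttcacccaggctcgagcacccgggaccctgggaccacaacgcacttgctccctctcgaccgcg
Cpt1a, chr19:3323051-3323350, plus strand: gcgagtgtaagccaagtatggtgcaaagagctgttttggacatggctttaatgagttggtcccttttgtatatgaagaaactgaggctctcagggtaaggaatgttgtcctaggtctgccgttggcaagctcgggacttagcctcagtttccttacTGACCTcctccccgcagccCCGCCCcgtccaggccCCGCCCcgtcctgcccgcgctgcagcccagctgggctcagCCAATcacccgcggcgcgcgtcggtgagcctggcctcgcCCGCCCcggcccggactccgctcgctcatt
Hadhb, chr5:30155003-30155302, plus strand: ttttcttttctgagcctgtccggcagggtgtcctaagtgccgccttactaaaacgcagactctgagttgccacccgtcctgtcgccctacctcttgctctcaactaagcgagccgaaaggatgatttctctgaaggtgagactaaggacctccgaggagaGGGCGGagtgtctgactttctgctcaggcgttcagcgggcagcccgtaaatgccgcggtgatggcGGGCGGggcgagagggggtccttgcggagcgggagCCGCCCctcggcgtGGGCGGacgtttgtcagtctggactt

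The Pdk4 window holds a CCAAT box and neither other motif, and that of Cpt1a holds all 3 motifs. AGGTCA was found in the windows of Cpt1a, Acadm and Acadvl, 3 of 9 members, and in 16.3% of 32851 promoters of that length. CCAAT was found for Pdk4 and Cpt1a, and in 37.4% of all promoters. GGGCGG was found for 6 members, all but Pdk4, Acadm and Acadvl, and in 35.7% of all promoters. AGGTCA repeated head to tail with 1 base between, the consensus form of the PPAR response element, was in no member's window and in 0.0396% of all promoters. Only exact letters in these windows were searched, so this says nothing about binding. The Hadha and Hadhb windows face away from each other and share 228 bases, with 272 bases between both starts.

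Azoramide moved the 9 genes in different directions. Against DMSO in control islets, 4 of 9 rose (Pdk4, Hadha, Hadhb, Cpt2) and 1 fell (Cpt1a) by edgeR's quasi-likelihood test at an adjusted p under 0.05. Over all 15093 genes tested, 39% passed, 19.3% higher and 19.8% lower. In libraries labelled knockout, 3 rose (Pdk4, Hadha, Hadhb) and 1 fell (Cpt1a), where 39.8% of all genes passed, 20% higher and 19.8% lower. The members' median log2 fold change was 0.10 in control and 0.13 in labelled knockout islets, beside -0.02 and -0.003 over all genes. The groups did not overlap for 5 members in control and 4 in labelled knockout islets, where 48.4% and 61.6% of all genes did not overlap, so these counts are near or below the background. A comparison with plain library totals shifts all genes: their median becomes -0.19 and -0.16, and the share of higher genes among those that passed goes from 49.3% to 24.8% in control and from 50.2% to 29.1% in labelled knockout islets.

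Fold changes with azoramide also followed transcript length. In control islets the median log2 fold change was 0.48 over 1114 genes with a principal transcript of up to 1000 bases, 0.03 over 3428 genes between 2000 and 3000 bases, and -0.28 over 1777 genes longer than 6000 bases. In labelled knockout islets those medians were 0.51, 0.04 and -0.24. Azoramide results are therefore set beside fits with an offset for length and GC content, measured either over all exons of a gene or over its principal transcript, the latter added after the data were seen. What produces the trend was not tested.

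**Figure D1:**
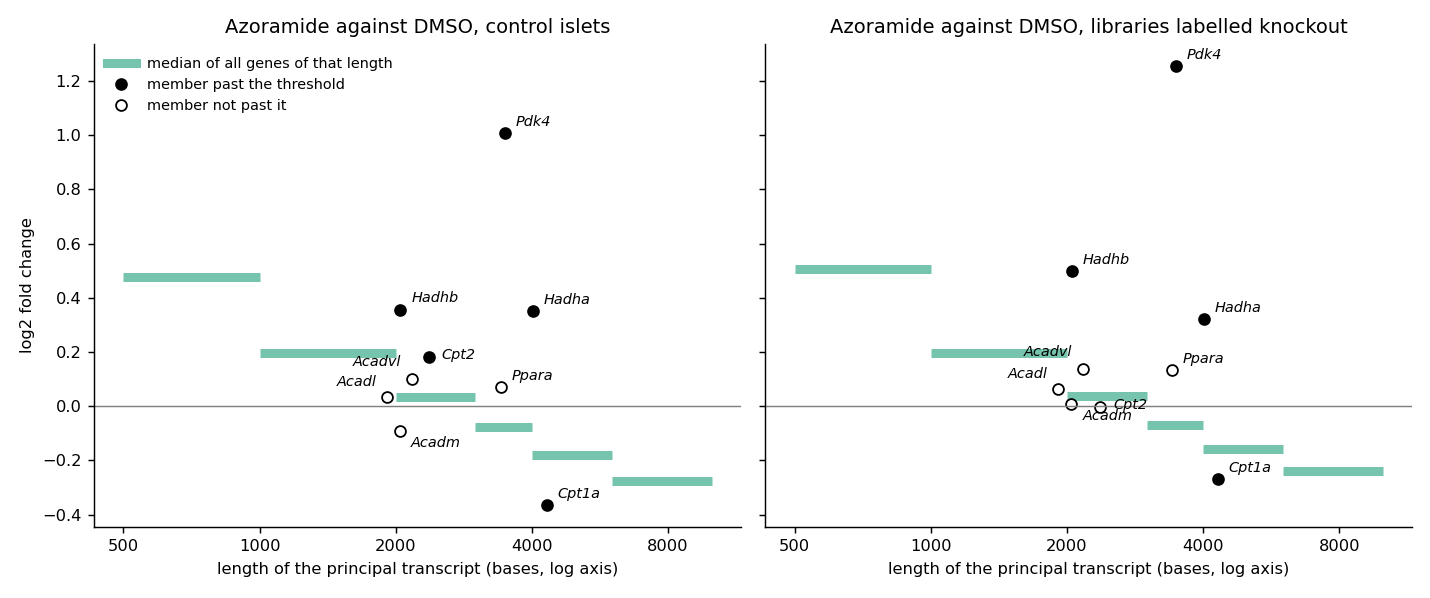
Log2 fold change of azoramide against DMSO (vertical axis) for each of the 9 members by length of the principal transcript in bases (horizontal log axis), in control islets (left) and libraries labelled knockout (right). Filled points passed the threshold, and green bars are medians over all genes of a length class, with the open classes at either end cut short; Pdk4 and Hadha lie far above the bar of their length, Cpt1a nearer to it.

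Pdk4 (chromosome 6, 5483351 to 5496309, minus strand, GRCm38; 11 exons) showed the greatest change of the 9. With DMSO its level in control islets was 16.98, 20.16 and 16.53 CPM, and with azoramide 32.66, 42.83 and 32.62 CPM. Labelled knockout islets had 17.6 and 14.48 CPM with DMSO and 38.14, 45.65 and 30.97 CPM with azoramide. All 6 azoramide libraries were thus above all 5 DMSO libraries, by a wide gap. The rise was 1.01 on the log2 scale (2.01-fold, SE 0.154, adjusted p = 0.000213) in control and 1.26 (2.39-fold, SE 0.176, adjusted p = 0.000114) in labelled knockout islets. With the length and GC offset over all exons the log2 rise was 0.85 and 1.07, and with that over the principal transcript 0.92 and 1.13, still past the threshold. By signed log2 fold change, from the highest rise down, Pdk4 ranked 277 of the 15093 genes in control and 301 in labelled knockout islets.

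**Figure D2:**
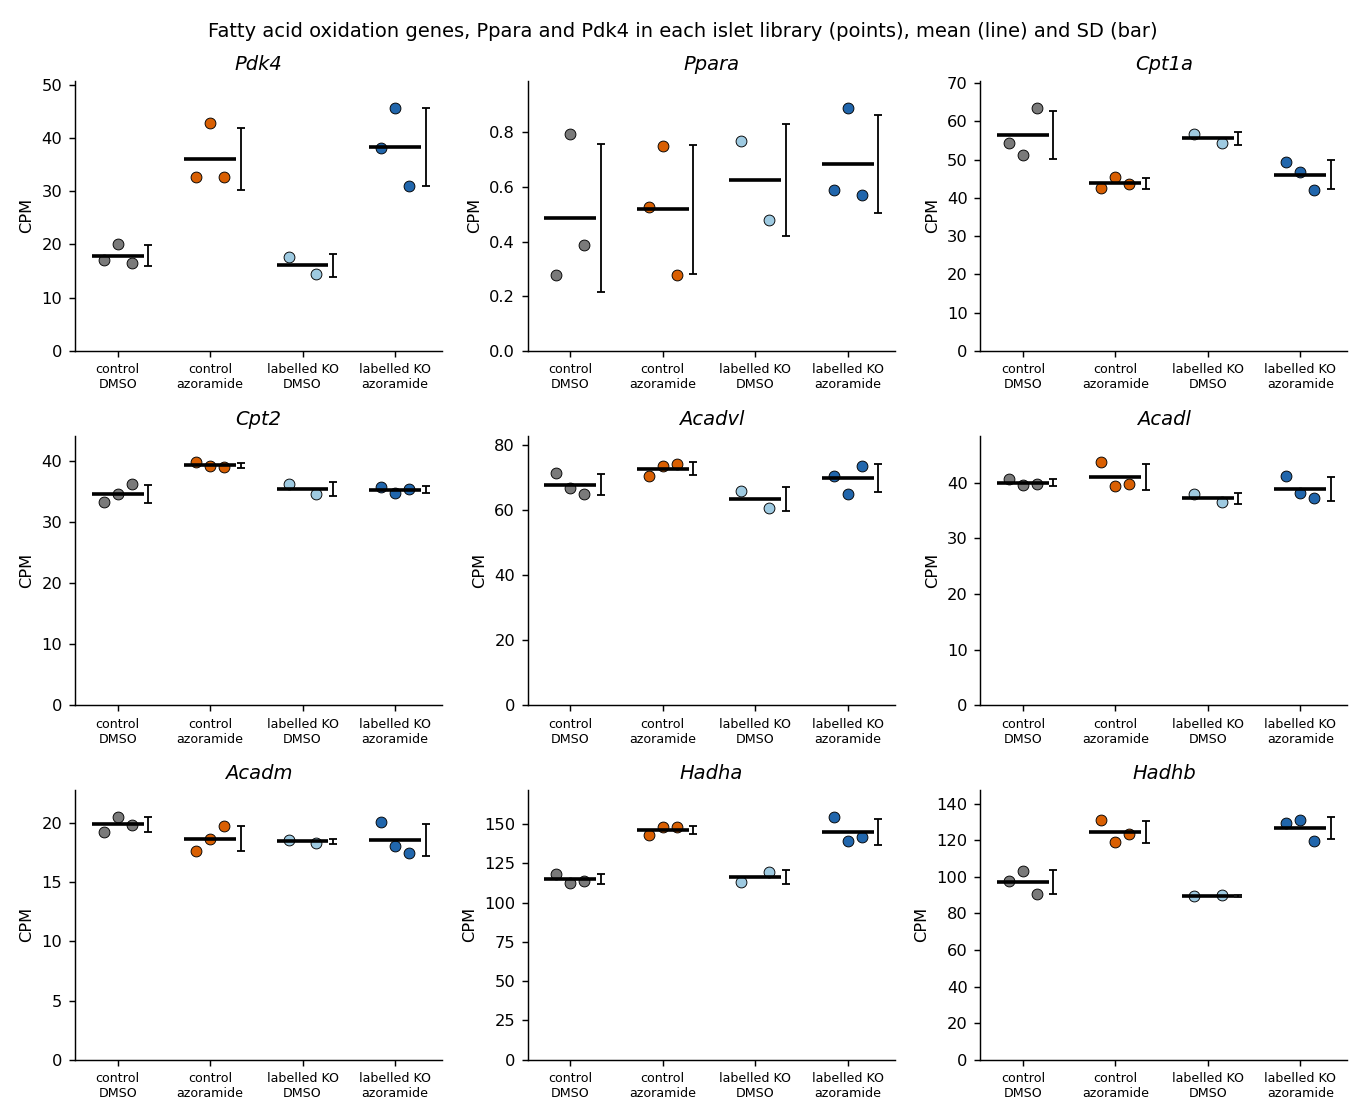
Normalised level (CPM, vertical axes from 0) of the 9 genes in each of the 11 libraries, by group, with the mean (line) and SD (bar). Pdk4, Hadha and Hadhb stand higher with azoramide in both genotypes, Cpt1a lower, and the acyl-CoA dehydrogenase genes overlap between treatments.

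Ppara (chromosome 15, 85734983 to 85802819, plus strand; 8 exons), the receptor gene, was barely read: 5 to 16 counts per library. Its level was 0.49 ± 0.271 CPM (SD, n = 3) with DMSO and 0.52 ± 0.236 CPM (SD, n = 3) with azoramide in control islets, and 0.62 ± 0.205 (SD, n = 2) and 0.68 ± 0.179 CPM (SD, n = 3) in labelled knockout islets. The groups overlapped, and the log2 difference was 0.07 (95% interval -1.10 to 1.24, adjusted p = 0.936) in control and 0.13 (95% interval -1.08 to 1.35, adjusted p = 0.88) in labelled knockout islets. At this depth a change of the size seen for Pdk4 would not have been detectable.

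The carnitine shuttle genes did not move together. Cpt1a (chromosome 19, 3322334 to 3385733, plus strand; 19 exons), the entry step and the one blocked by malonyl-CoA, was at 54.38, 51.27 and 63.46 CPM with DMSO and at 42.47, 45.3 and 43.57 CPM with azoramide in control islets. Labelled knockout islets had 56.76 and 54.26 CPM with DMSO and 49.46, 46.76 and 42.01 CPM with azoramide. Every azoramide library was below every DMSO library. The log2 change was -0.36 (SE 0.083, adjusted p = 0.00212) in control and -0.27 (SE 0.092, adjusted p = 0.0275) in labelled knockout islets. With the length and GC offset over all exons these became -0.13 (adjusted p = 0.299) and -0.01 (adjusted p = 0.951), and with that over the principal transcript -0.17 (adjusted p = 0.164) and -0.06 (adjusted p = 0.709), so the call ended. In labelled knockout islets it also ended without DMSO library 1 (-0.24, adjusted p = 0.166), DMSO library 2 (-0.30, adjusted p = 0.0789) or azoramide library 3 (-0.21, adjusted p = 0.0929).

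Cpt2 (chromosome 4, 107903981 to 107923610, minus strand; 5 exons), which rebuilds acyl-CoA inside the mitochondrion, was at 33.17, 34.58 and 36.11 CPM with DMSO and 39.71, 39.19 and 38.9 CPM with azoramide in control islets. These groups did not overlap, and the log2 difference was 0.18 (SE 0.07, adjusted p = 0.0483). The call held in 3 of the 21 other settings and its adjusted p ran up to 0.904, with plain library totals. The labelled knockout level was 36.23 and 34.51 CPM with DMSO and 35.73, 34.7 and 35.35 CPM with azoramide, and the groups overlapped (adjusted p = 0.972). The ratio of Cpt1a to Cpt2 counts within a library needs no scaling between libraries, but it carries any effect of length, and their principal transcripts have 4317 and 2372 bases. With DMSO it was 1.64, 1.48 and 1.76 in control and 1.57 and 1.57 in labelled knockout islets. With azoramide it was 1.07, 1.16 and 1.12 in control and 1.38, 1.35 and 1.19 in labelled knockout islets, below every DMSO library. With the offset over all exons the log2 changes in control islets were -0.13 for Cpt1a and 0.025 for Cpt2, closer to each other than the -0.36 and 0.18 above.

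The 3 acyl-CoA dehydrogenase genes did not pass the test in either genotype. Acadvl (chromosome 11, 70010183 to 70015411, minus strand; 20 exons) codes for the very-long-chain enzyme. It was at 71.25, 66.83 and 64.96 CPM with DMSO and 70.31, 73.32 and 74.03 CPM with azoramide in control islets, and at 65.9 and 60.68 against 70.38, 65 and 73.5 CPM in labelled knockout islets. The groups overlapped, with log2 differences of 0.10 (95% interval -0.04 to 0.24) and 0.14 (95% interval -0.01 to 0.29). Acadvl shares 1151 exonic bases with Dvl2 on the opposite strand, which was read at 13.95 to 19.36 CPM by group mean, and without a known strand setting their reads there cannot be told apart.

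Acadl (chromosome 1, 66830839 to 66863277, minus strand; 11 exons), the long-chain enzyme, was at 40.69, 39.53 and 39.83 CPM with DMSO and 43.64, 39.37 and 39.85 CPM with azoramide in control islets. For labelled knockout islets the values were 37.93 and 36.48 CPM against 41.25, 38.14 and 37.23 CPM. Its log2 difference was 0.03 (95% interval -0.12 to 0.19) and 0.06 (95% interval -0.11 to 0.24). With the offset over all exons it turned to -0.44 (adjusted p = 0.000269) and -0.45 (adjusted p = 0.000507), and with that over the principal transcript to -0.29 (adjusted p = 0.00691) and -0.30 (adjusted p = 0.0096). Its direction thus depends on whether transcripts are compared with others of their length and GC content.

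Acadm (chromosome 3, 153922357 to 153944632, minus strand; 12 exons), the medium-chain enzyme, was at 19.26, 20.51 and 19.86 CPM with DMSO and 17.62, 18.67 and 19.73 CPM with azoramide in control islets. The labelled knockout values were 18.58 and 18.31 CPM against 20.12, 18.07 and 17.48 CPM. Differences were -0.09 (95% interval -0.28 to 0.10) and 0.01 (95% interval -0.20 to 0.22) on the log2 scale. In control islets Acadm passed as lower in 2 other settings, plain library totals (-0.26, adjusted p = 0.0356) and the principal transcript offset (-0.29, adjusted p = 0.03).

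Both genes of the trifunctional protein rose in both genotypes. Hadha (chromosome 5, 30118304 to 30155162, minus strand; 20 exons), the alpha subunit with the hydratase and long-chain dehydrogenase activities, was at 118.4, 112.4 and 113.5 CPM with DMSO and 143.1, 147.8 and 147.9 CPM with azoramide in control islets. In labelled knockout islets it was at 113.3 and 119.2 CPM with DMSO and 154.5, 139.2 and 141.5 CPM with azoramide. No azoramide library reached down to a DMSO library. The log2 rise was 0.35 (1.27-fold, SE 0.058, adjusted p = 0.00013) and 0.32 (1.25-fold, SE 0.065, adjusted p = 0.000812). It was 0.51 and 0.46 with the offset over all exons, and 0.51 and 0.50 with that over the principal transcript. With plain library totals it was 0.18 (adjusted p = 0.0249) in control and 0.16 (adjusted p = 0.0688) in labelled knockout islets, where the call ended. Hadha shares 75 exonic bases with Garem2 on the opposite strand, which was at most 0.32 CPM in any library.

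Hadhb (chromosome 5, 30155248 to 30184593, plus strand; 16 exons), the beta subunit with the thiolase activity, was at 97.58, 103.4 and 90.42 CPM with DMSO and 131, 118.9 and 123.3 CPM with azoramide in control islets. Labelled knockout values were 89.4 and 90.16 CPM against 129.2, 131.1 and 119.8 CPM. These groups did not overlap either. The log2 rise was 0.36 (SE 0.063, adjusted p = 0.000245) in control and 0.50 (SE 0.071, adjusted p = 3.47e-05) in labelled knockout islets. It was 0.27 and 0.37 with the offset over all exons, and with the principal transcript offset 0.07 (adjusted p = 0.375) and 0.17 (adjusted p = 0.0538), where the call ended. The 2 subunit genes kept a like ratio: Hadha counts over Hadhb counts ran from 1.06 to 1.32 over the 11 libraries, and azoramide and DMSO libraries overlapped in both genotypes.

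**Figure D3:**
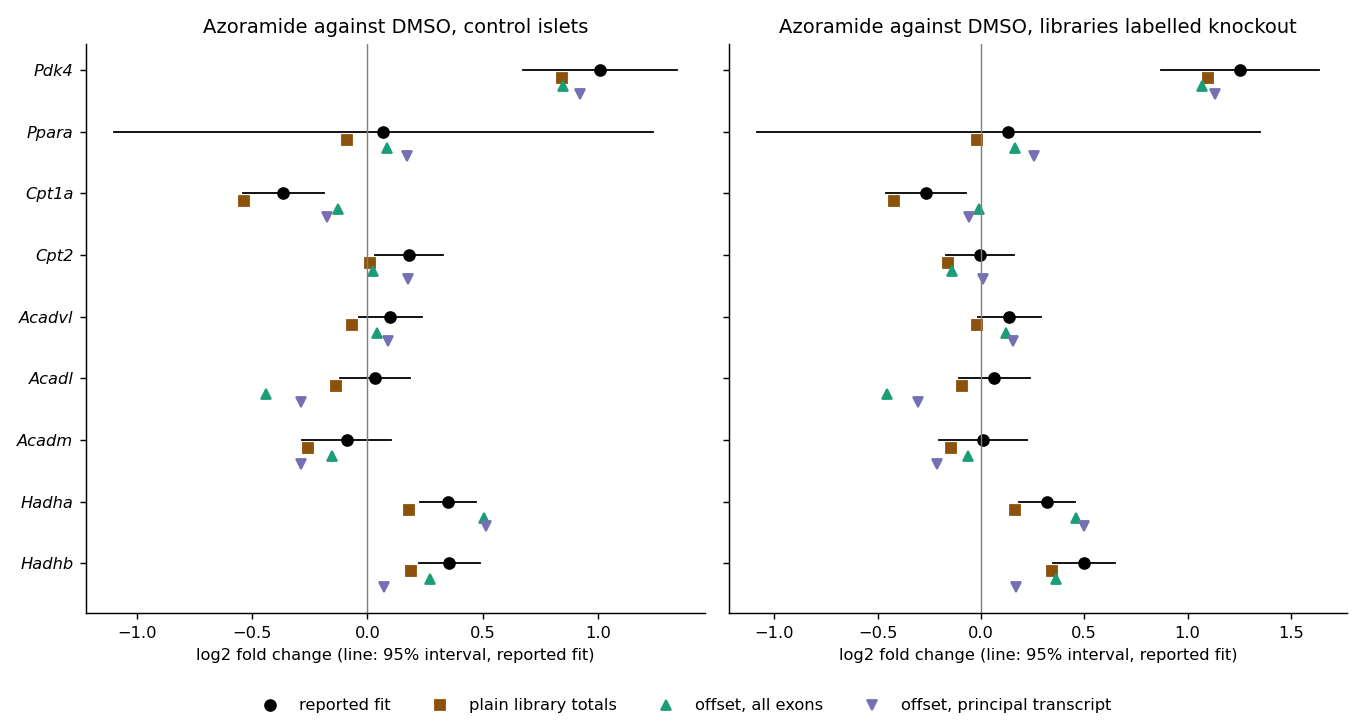
Log2 fold change of azoramide against DMSO (horizontal axis) for the 9 genes in control islets (left) and libraries labelled knockout (right): the reported fit with its 95% interval (black), plain library totals (squares) and both offsets for length and GC content (triangles). Pdk4 stays near or above 0.85 in all 4 fits, Hadha stays above 0, while Acadl crosses 0 and Cpt1a moves towards it.

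Per kilobase of principal transcript, a scale on which genes can be compared, the DMSO control levels were ordered Hadhb (47.4 ± 3.19), Acadvl (31.2 ± 1.49), Hadha (28.6 ± 0.796), Acadl (20.9 ± 0.316), Cpt2 (14.6 ± 0.62), Cpt1a (13.1 ± 1.47), Acadm (9.71 ± 0.306), Pdk4 (5.13 ± 0.568) and Ppara (0.14 ± 0.0793 CPM per kb; SD, n = 3). Libraries of Cpt2 and Cpt1a overlapped in that order, and the other neighbours did not. With azoramide Pdk4 stood at 10.3 ± 1.69 CPM per kb and Cpt1a at 10.1 ± 0.329 CPM per kb (SD, n = 3) in control islets, with overlapping libraries, where with DMSO every Cpt1a library was above every Pdk4 library. In labelled knockout islets with azoramide they stood at 10.98 ± 2.11 and 10.67 ± 0.874 CPM per kb (SD, n = 3).

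Pdk4 belongs to a family of 4 kinases of pyruvate dehydrogenase, and Pdk2, the most widely expressed of them, moved the opposite way. It was at 15.81, 12.53 and 15.48 CPM with DMSO and 6.872, 8.761 and 7.225 CPM with azoramide in control islets, and at 15.6 and 15.72 against 6.92, 7.951 and 7.059 CPM in labelled knockout islets. Pdk2 fell by 0.94 (adjusted p = 3.54e-05) and by 1.10 (adjusted p = 1.73e-05) on the log2 scale, and passed in all 21 other settings, with values from -1.10 to -0.85 and from -1.25 to -0.94. Within each library the ratio of Pdk4 to Pdk2 counts went from 0.92 to 1.61 with DMSO to 4.39 to 5.74 with azoramide. Pdk3, named after its values were seen, was 0.36 (adjusted p = 0.0694) in control islets and rose by 0.57 (adjusted p = 0.0142) in labelled knockout islets. That call ended without either DMSO library (0.51, adjusted p = 0.109, and 0.63, adjusted p = 0.0563), without azoramide library 1 (0.45, adjusted p = 0.0553), with plain library totals and with both offsets. Pdk1 was spread among control DMSO libraries, at 74.98, 35.87 and 47.54 CPM, and its log2 difference was -0.52 (adjusted p = 0.16) in control and -0.26 (adjusted p = 0.527) in labelled knockout islets. When control DMSO library 2 was left out the control value was -0.74 (adjusted p = 0.0275).

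**Figure D4:**
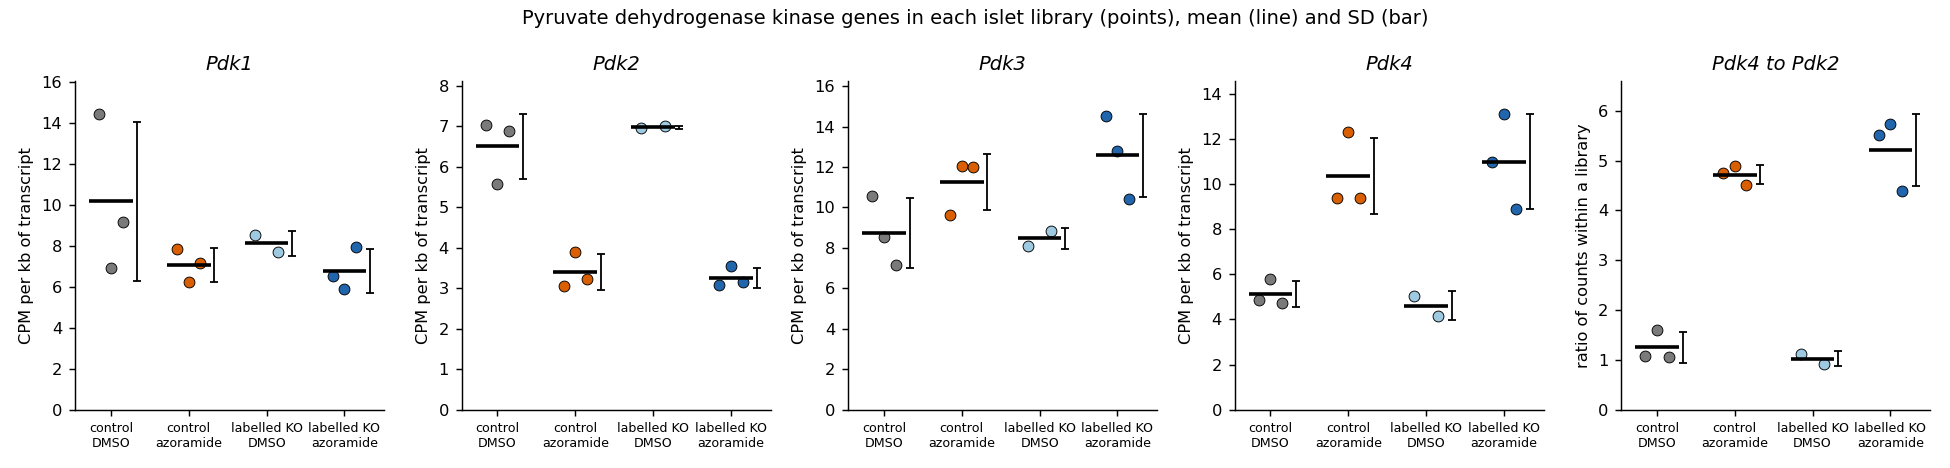
Levels of Pdk1, Pdk2, Pdk3 and Pdk4 per kilobase of transcript (CPM per kb, vertical axes from 0) in each library, and the ratio of Pdk4 to Pdk2 counts (right), by group with the mean (line) and SD (bar). Pdk4 rises and Pdk2 falls with azoramide, and the ratio moves from at most 1.61 to at least 4.39.

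Around these kinases, 13 genes of the pyruvate dehydrogenase complex, its other regulators and the mitochondrial pyruvate carrier were listed with Pdk1 to Pdk3 among them. In each genotype 7 of 13 rose and 3 fell, with median log2 fold changes of 0.38 and 0.44. Those are shares of 53.8% and 23.1%. Over all genes 19.3% rose and 19.8% fell in control, and 20% and 19.8% in labelled knockout islets. The carrier gene Mpc1, through which pyruvate enters the mitochondrion, rose by 1.05 and 1.08 and its partner Mpc2 by 0.61 and 0.50. The subunit genes Pdha1 (0.38 and 0.44) and Pdhb (0.49 and 0.56) of the first enzyme of the complex rose, as did Dld (0.46 and 0.58), the dehydrogenase that the complex shares with others of its kind. The 3 that fell were Pdk2, Pdp2 and Pdpr. Pdp2 is a phosphatase that switches the complex on (-0.54 and -0.60), and Pdpr a regulatory subunit for such phosphatases (-0.54 and -0.75). The other phosphatase gene, Pdp1, rose by 0.44 (adjusted p = 0.00634) in control islets. In labelled knockout islets Pdp1 was 0.15 (adjusted p = 0.406). Pdp1, Pdp2 and Pdpr were named after their values were seen. The offset over all exons gave 4 rises and 3 falls in control islets (30.8% and 23.1%). It gave 5 rises and 3 falls in labelled knockout islets (38.5% and 23.1%). That offset left 11.9% of all genes higher and 11.4% lower in control, and 12.6% and 12% in labelled knockout islets. With the principal transcript offset 2 rose and 3 fell in control islets (15.4% and 23.1%). In labelled knockout islets 3 rose and 3 fell (23.1% each). Over all genes that fit had 10.3% higher and 9.23% lower in control, and 10.8% and 10.2% in labelled knockout islets. Mpc1 (0.38 and 0.35) and Pdha1 (0.23 and 0.26) were among the list genes still past the threshold, while Mpc2, Pdhb and Dld were not.

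Of 20 other genes of mitochondrial beta oxidation, 9 rose and 1 fell in control islets (median 0.18). Labelled knockout islets showed 8 rises and 1 fall (median 0.17). The shares were 45% higher and 5% lower in control, beside 19.3% and 19.8% of all genes. In labelled knockout islets they were 40% and 5%, beside 20% and 19.8%. Hsd17b10, a short-chain hydroxyacyl-CoA dehydrogenase, rose by 0.66 (adjusted p = 1.62e-05) and 0.69 (adjusted p = 3.25e-05), but was 0.20 (adjusted p = 0.123) and 0.23 (adjusted p = 0.107) with the offset over all exons, and the call ended with both offsets. Etfb and Etfa, the electron transfer flavoprotein that accepts electrons from the acyl-CoA dehydrogenases, rose by 0.54 and 0.31 in control and by 0.54 and 0.40 in labelled knockout islets, but Etfa turned to -0.15 and -0.09 with the offset over all exons and to -0.17 and -0.13 with that over the principal transcript, and the calls for Etfb ended with both offsets. Echs1, the short-chain hydratase, rose by 0.47 and 0.41, calls that ended with the principal transcript offset (0.22 and 0.15), as did that in labelled knockout islets without DMSO library 2 (0.26). Decr1, needed for unsaturated chains, rose by 0.45 and 0.46. Its control call held in 19 of 21 other settings, with values from 0.262 to 0.515. Its labelled knockout call ended with both offsets (0.24 and 0.26) and without DMSO library 2 (0.38). Slc25a20, the carrier between Cpt1a and Cpt2 in the shuttle, rose by 0.37 (adjusted p = 0.0109) and 0.32 (adjusted p = 0.0441). Both calls ended with plain library totals and with the principal transcript offset (0.17 and 0.11). The labelled knockout call held in only 8 of 21 other settings, with an adjusted p up to 0.552, and ended among others without either of its DMSO libraries (0.41 and 0.24) and without the first or the second of its azoramide libraries (0.31 and 0.30). Among control libraries, leaving out the first with DMSO, or the second or the third with azoramide, ended it as well, at 0.32 in each case. The gene that fell was Acad12 (-0.58 and -0.75), named after its values were seen. Its calls ended with both offsets, in control islets without DMSO library 3 (-0.40), azoramide library 1 (-0.64) or azoramide library 3 (-0.38), and in labelled knockout islets without DMSO library 1 (-0.80) or 2 (-0.70). The offset over all exons gave 5 rises and no fall among the 20 in each genotype (25% higher). That offset left 11.9% of all genes higher and 11.4% lower in control, and 12.6% and 12% in labelled knockout islets. With the principal transcript offset 2 rose and none fell in control islets (Decr1, 0.29, and Acat1, a thiolase gene, 0.24). Over all genes that fit had 10.3% higher and 9.23% lower in control, and 10.8% and 10.2% in labelled knockout islets. In labelled knockout islets none of the 20 rose with it and 1 fell. That last gene was Hadh, the short-chain dehydrogenase known for restraining insulin secretion.

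Hadh was the most abundant of the oxidation genes named here per kilobase, at 142 CPM per kb in control DMSO islets beside 47.4 CPM per kb for Hadhb. It was at 254.5 ± 61.9 CPM with DMSO and 219.5 ± 11.3 CPM with azoramide in control (SD, n = 3), and at 273.9 ± 14.1 (SD, n = 2) and 203 ± 15 CPM (SD, n = 3) in labelled knockout islets. Its log2 difference was -0.21 (adjusted p = 0.332) and -0.43 (adjusted p = 0.0808). Leaving out control DMSO library 2 gave -0.40 (adjusted p = 0.000138) in control and -0.43 (adjusted p = 4.58e-05) in labelled knockout islets.

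The other PPAR receptors, their RXR partners and coregulators were listed together. The list also held other transcription factor genes: Esrra, Hnf4a, Nr3c1, Foxo1 and Foxo3. Of 14 tested, control islets showed no rise and 7 falls, and labelled knockout islets 1 rise and 7 falls, with medians of -0.28 and -0.26; over all genes 19.8% fell in each genotype. Under the principal transcript offset none rose and 2 fell in control, and 1 rose and 2 fell in labelled knockout islets, with medians of -0.06 in both; 2 of 14 is 14.3%, beside 9.23% and 10.2% lower over all genes in that fit. The offset over all exons gave 3 falls among the 14 in each genotype (21.4%), with no rise in control and 1 in labelled knockout islets. That offset left 11.4% of all genes lower in control and 12% in labelled knockout islets. Ppard, the receptor PPAR delta, fell by 0.52 (adjusted p = 8.73e-05) and 0.44. With the offset over all exons the values of Ppard were -0.10 and 0.05. The call thus ended in both, and the direction turned in labelled knockout islets. Rxra, the partner with which PPARs bind DNA, fell by 0.33 and 0.51, but neither call held with an offset, and in control islets the value turned to 0.001 and 0.06 with the 2 offsets. The control call for Rxra also ended without DMSO library 3 (-0.21), azoramide library 1 (-0.22) or azoramide library 3 (-0.31). Pparg, at 32.1 ± 1.38 CPM with DMSO in control islets (SD, n = 3), was 0.12 (adjusted p = 0.376) and 0.11 (adjusted p = 0.461), and turned negative with plain library totals and with both offsets. The corepressor gene Ncor1 fell by 0.54 and 0.50 and stayed past the threshold in all 21 other settings. The coactivator gene Ncoa1 fell by 0.44 and 0.59, and was -0.16 (adjusted p = 0.149) and -0.32 with the principal transcript offset. Foxo1 and Foxo3, forkhead factors known to act on Pdk4, fell by 0.56 and 0.54 in control and by 0.50 and 0.64 in labelled knockout islets. The calls for Foxo3 ended with both offsets. Foxo1 passed in all 21 other settings in control islets and in 20 of 21 in labelled knockout islets, where it ran from -0.66 to -0.21.

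The riser was Ppargc1a, the PGC-1 alpha coactivator that works with PPAR alpha, named after its values were seen. It was at 3.285 and 3.355 CPM with DMSO and 9.925, 9.397 and 7.173 CPM with azoramide in labelled knockout islets, a log2 rise of 1.41 (SE 0.384, adjusted p = 0.012). Without DMSO library 1 it was 1.40 (adjusted p = 0.0814) and without DMSO library 2 it was 1.43 (adjusted p = 0.084). In control islets DMSO library 2 stood apart at 10.2 CPM, beside 3.841 and 4.272 CPM, and azoramide libraries were at 4.875, 6.917 and 6.947 CPM (log2 difference 0.02, adjusted p = 0.965). Without that library the control difference was 0.62 (adjusted p = 0.0254). The interaction, 1.39, did not pass (SE 0.501, adjusted p = 0.999).

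Other targets of PPAR alpha moved in different directions. Of 20 listed, 7 were too low to test, among them Angptl4, Cyp4a10 and Fabp1. Of the 13 tested, control islets showed 2 rises and 1 fall (median 0.05), and labelled knockout islets 4 rises and 1 fall (median -0.03). The shares were 15.4% higher and 7.69% lower in control, beside 19.3% and 19.8% of all genes. In labelled knockout islets they were 30.8% and 7.69%, beside 20% and 19.8%. Acot1, Creb3l3 and Fgf21 were at 0.48, 0.29 and 1.42 CPM by mean in control DMSO islets, where a change could go unseen. Fabp3, a fatty acid binding protein, rose by 0.71 and 0.64, a call that ended with both offsets. Ucp2, a carrier of the inner mitochondrial membrane, fell by 0.42 and 0.74, and the control call ended with both offsets (-0.11 and -0.16). Plin2, a lipid droplet coat protein, was 0.32 (adjusted p = 0.094) in control and rose by 0.68 (adjusted p = 0.00358) in labelled knockout islets, where it stayed past the threshold in all 21 other settings. Without control DMSO library 1 the control value of Plin2 was 0.53 (adjusted p = 0.00787). Cd36, a fatty acid uptake receptor also found on macrophages and endothelium, was 0.92 (adjusted p = 0.0592) and rose by 1.30 (adjusted p = 0.0185). The call for Cd36 in labelled knockout islets ended without either DMSO library (adjusted p = 0.0781 and 0.13), with no filter on low counts and with both offsets. Macrophage markers, all 8 read, summed to 44.2 to 57.7 CPM with DMSO and 61.6 to 116 CPM with azoramide, and the 7 endothelial markers to 309 to 324 and 219 to 279 CPM; their part in the Cd36 and Plin2 values was not tested. The offset over all exons gave 1 rise and no fall in control islets (7.69% higher). It gave 2 rises and 1 fall in labelled knockout islets (15.4% and 7.69%). That offset left 11.9% of all genes higher and 11.4% lower in control, and 12.6% and 12% in labelled knockout islets. With the principal transcript offset control islets showed no call among the 13, and labelled knockout islets 1 rise and 1 fall (7.69% each). Over all genes that fit had 10.3% higher and 9.23% lower in control, and 10.8% and 10.2% in labelled knockout islets.

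**Figure D5:**
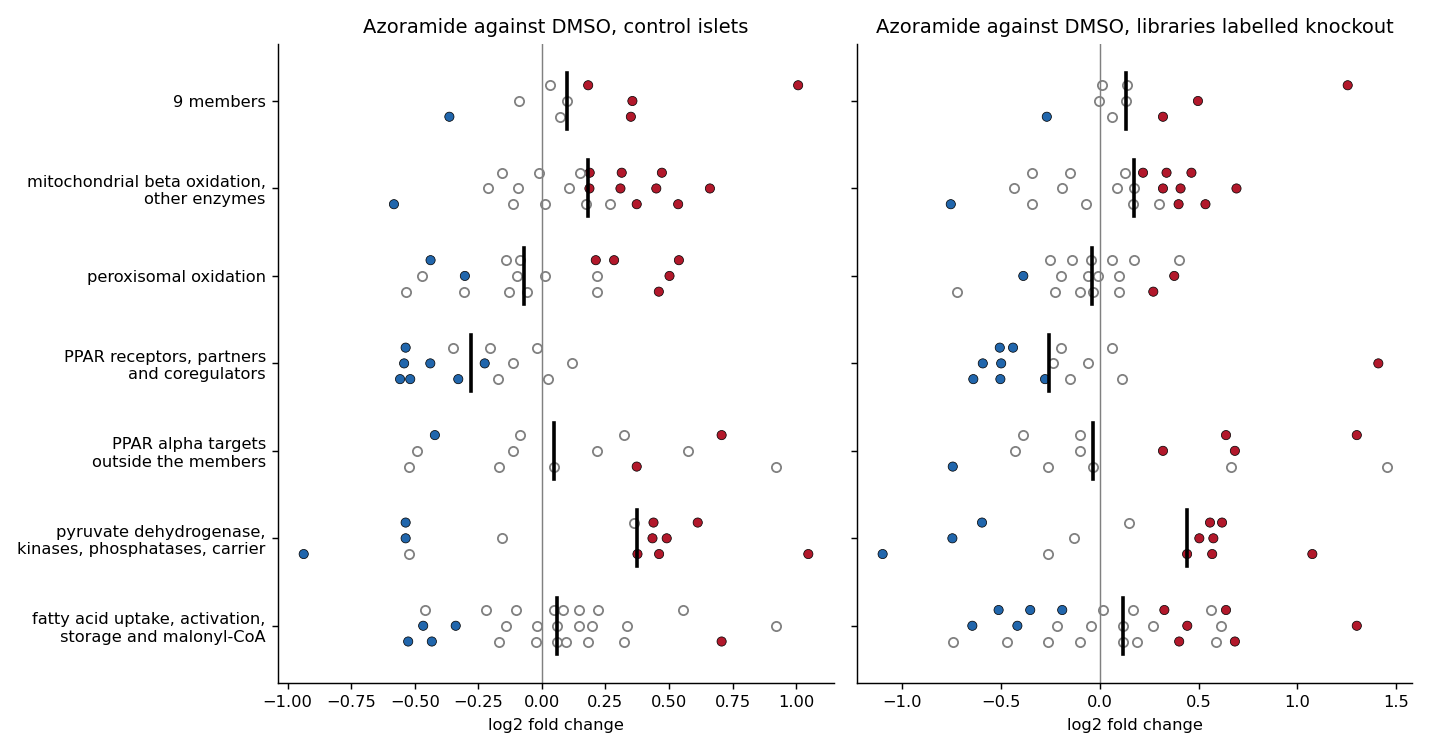
Log2 fold change of azoramide against DMSO (horizontal axis) for the 9 members and the tested genes of 6 lists, in control islets (left) and libraries labelled knockout (right). Filled points passed the threshold (red higher, blue lower), and black ticks are medians. These lie above 0 for the pyruvate dehydrogenase list and below 0 for the list of PPAR receptors, partners and coregulators.

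Peroxisomes shorten very long chains by a separate set of enzymes. Of 18 such genes tested, 5 rose and 2 fell in control and 2 rose and 1 fell in labelled knockout islets, with medians of -0.07 and -0.04. The shares were 27.8% higher and 11.1% lower in control, beside 19.3% and 19.8% of all genes. In labelled knockout islets they were 11.1% and 5.56%, beside 20% and 19.8%. The offset over all exons gave 2 rises and 2 falls in control islets (11.1% each). It gave no rise and 3 falls in labelled knockout islets (16.7% lower). That offset left 11.9% of all genes higher and 11.4% lower in control, and 12.6% and 12% in labelled knockout islets. Under the principal transcript offset 1 rose and 2 fell in control, and none rose and 2 fell in labelled knockout islets. Over all genes that fit had 10.3% higher and 9.23% lower in control, and 10.8% and 10.2% in labelled knockout islets. Scp2, with a thiolase activity for branched chains, rose by 0.46 and 0.38, a call that ended in labelled knockout islets with both offsets (0.17 and 0.14). Acox3, an oxidase for branched chains, fell by 0.44 and 0.39, but with the offset over all exons it was -0.09 (adjusted p = 0.417) and -0.02 (adjusted p = 0.898), where both calls ended, and with that over the principal transcript -0.24 and -0.16, where the labelled knockout call ended. Ech1 and Acot8 rose in control islets, by 0.54 and 0.50, and were 0.10 and 0.06 in labelled knockout islets. With the principal transcript offset the control values were 0.29 for Ech1 and 0.31 for Acot8 and no longer passed, and the call for Acot8 also ended with the offset over all exons (0.39), with plain library totals (0.33) and without azoramide library 3 (0.41). Phyh, which starts the breakdown of phytanic acid, rose by 0.21 and 0.27 but turned to -0.31 and -0.30, past the threshold, with the offset over all exons. The rises of Phyh also ended without control DMSO library 1 (0.19), azoramide library 2 (0.20) or azoramide library 3 (0.19) in control islets, and without DMSO library 2 (0.25) or azoramide library 1 (0.20) in labelled knockout islets.

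Supply of fatty acids and malonyl-CoA was followed through 26 tested genes. Of these 1 rose and 4 fell in control and 6 rose and 5 fell in labelled knockout islets (medians 0.06 and 0.12). The shares were 3.85% higher and 15.4% lower in control, beside 19.3% and 19.8% of all genes. In labelled knockout islets they were 23.1% and 19.2%, beside 20% and 19.8%. The offset over all exons gave no rise and 4 falls in control islets (15.4% lower). It gave 3 rises and 4 falls in labelled knockout islets (11.5% and 15.4%). That offset left 11.9% of all genes higher and 11.4% lower in control, and 12.6% and 12% in labelled knockout islets. In each genotype 2 rose and 4 fell with the principal transcript offset (7.69% and 15.4%). Over all genes that fit had 10.3% higher and 9.23% lower in control, and 10.8% and 10.2% in labelled knockout islets. Acaca, the carboxylase that makes the malonyl-CoA that blocks Cpt1a, fell by 0.47 (adjusted p = 5.62e-05) and 0.51 (adjusted p = 5.71e-05), and was -0.13 (adjusted p = 0.183) and -0.19 (adjusted p = 0.0694) with the principal transcript offset. Prkaa2, a catalytic subunit of AMP-activated kinase, which restrains that carboxylase, fell by 0.43 and 0.35 and passed with both offsets. Its labelled knockout call ended without DMSO library 2 (-0.28) or azoramide library 2 (-0.29). Prkaa1, the other catalytic subunit, was at 29.6 CPM per kb in control DMSO islets, beside 2.64 CPM per kb for Prkaa2. The log2 difference of Prkaa1 was 0.06 (adjusted p = 0.47) in control and 0.02 (adjusted p = 0.869) in labelled knockout islets. Pnpla2, the first lipase of the lipid droplet, fell by 0.34 and 0.65, and its control call ended with the offset over all exons (-0.24, adjusted p = 0.053) and without azoramide library 1 (-0.27). Among acyl-CoA synthetases Acsl6 fell by 0.53 and 0.42 (-0.28 and -0.17 with the offset over all exons, where the labelled knockout call ended), while Acsl4 was 0.15 (adjusted p = 0.121) in control and rose by 0.40 (adjusted p = 0.000743) in labelled knockout islets. With the offset over all exons Acsl4 was -0.11 in control and 0.07 (adjusted p = 0.555) in labelled knockout islets, and with that over the principal transcript 0.03 and 0.22 (adjusted p = 0.0617), so the call ended. Without control DMSO library 2 the control value of Acsl4 was 0.23 (adjusted p = 0.00716).

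The genotype label did not separate the 9 genes. Labelled knockout against control, 0 of 9 passed with DMSO and 0 of 9 with azoramide, and over all genes 0% and 0% passed edgeR's test. At an unadjusted p under 0.05 there were 531 and 754 genes, and DESeq2 called 3 and 2. The members' median log2 difference was -0.10 with DMSO and -0.01 with azoramide, beside -0.003 and 0.001 over all genes. With DMSO the groups of 3 and 2 libraries did not overlap for 3 of 9 members, where 19.4% of all genes did not overlap. These were Acadm (-0.11, 95% interval -0.32 to 0.11), Acadl (-0.10, 95% interval -0.28 to 0.07) and Hadhb (-0.11, 95% interval -0.26 to 0.04), and all 3 intervals include 0. With azoramide, where 11.1% of all genes did not overlap, Cpt2 alone of the 9 did not (log2 difference -0.16, 95% interval -0.30 to -0.01, unadjusted p = 0.0403, adjusted p = 0.959). For Pdk4 the difference was -0.16 (95% interval -0.54 to 0.22) with DMSO and 0.09 (95% interval -0.23 to 0.41) with azoramide.

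Whether the azoramide effect differed between genotypes was tested by the interaction, the effect in labelled knockout minus that in control islets. None of the 9 members passed, as 0% of all genes did by edgeR, with 563 genes at an unadjusted p under 0.05 and 0 called by DESeq2. For Pdk4 it was 0.25 (95% interval -0.25 to 0.75), for Hadhb 0.14 (95% interval -0.06 to 0.34), for Hadha -0.03 (95% interval -0.21 to 0.15) and for Cpt1a 0.10 (95% interval -0.17 to 0.36). Cpt2, which passed in control islets alone, had an interaction of -0.19 (95% interval -0.41 to 0.04, unadjusted p = 0.0935, adjusted p = 0.999), so its effects were not shown to differ. The intervals of Pdk4, Hadhb, Hadha and Cpt1a all include 0.

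The genes whose log2 CPM over the 11 libraries was most like that of Pdk4, among 11669 compared, were Hnrnpdl (Pearson r = 0.986), Mrpl41 (0.983), Psmb2 (0.983), Hnrnpk (0.983) and Rpf2 (0.982). They code for RNA-binding proteins, a mitochondrial ribosomal protein, a proteasome subunit and a ribosome assembly factor. These values are a description over libraries that share the azoramide contrast, and their log2 changes ranged from 0.20 to 0.72 in control and 0.28 to 0.96 in labelled knockout islets, all below that of Pdk4.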

How the data were processed

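RNA of 11 islet libraries was counted per gene. The authors deposited raw counts, unnormalized, for 32285 genes; STAR 2.7.2a, the build mm10 and DESeq2, with no role given, are named per the submitters' processing notes. No source used here gives the counter, annotation or strandedness. Positions, lengths and GC content came from GENCODE M21 on GRCm38, where 32158 genes had both.

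Counts were fitted in R 4.3.3 with edgeR 4.0.16 (quasi-likelihood test, robust, TMM scaling, filter on low counts by group), all 11 libraries in 1 fit of 4 groups. P-values were adjusted by Benjamini-Hochberg over 15093 genes, with a threshold of 0.05. The test was checked on simulated data that held no trend with transcript length, so that check does not cover the trend seen here. Alternatives, 21 in all, covered DESeq2 1.42.0, other scaling, no filter, a replicate block, offsets for length and GC content, and libraries left out.

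The members and the 6 pathway lists were chosen with earlier results of these data known. Named genes are the 9 members, up to 4 genes per list and azoramide comparison with the smallest p among those past the threshold, list genes at mean log2 CPM of at least 5 as context, and the 5 genes most like Pdk4 at mean log2 CPM of at least 1. Genes outside the rule are marked in the text.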

Additional observations from a re-analysis of the deposited data

How the results depend on the processing

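The count of members past the threshold with azoramide stayed at 4 or 5 in control and 3 or 4 in labelled knockout islets under all 21 alternatives, and at 0 for genotype and interaction. Of 9 azoramide values of members past the threshold, 9 kept their direction and 3 also their call throughout: Pdk4 in both genotypes and Hadha in control islets. Of 69 such values of other named genes, 63 kept direction and 20 their call (Pdp1 and Prkaa1 were not followed over the alternatives). At least 1 offset for length and GC content ended 5 and 47 of these calls; the cause was not tested. Among members these were Cpt1a and Hadhb in both genotypes and Cpt2 in control islets, while Hadha in labelled knockout islets lost its call with plain library totals. The like counts therefore do not hold the same members. With both offsets Acadl passed as lower in both genotypes. In control islets Acadm passed as lower with the principal transcript offset and with plain library totals. Over all genes the principal transcript offset left 10.3% higher and 9.23% lower in control, and 10.8% and 10.2% in labelled knockout islets. Replicate numbers are shared between groups, and pairing by number was not established. In control islets deviations of same-numbered DMSO and azoramide libraries correlated at 0.20, 0.27 and 0.05. In labelled knockout islets they correlated at 0.16 and -0.42. Deviations were taken from each group's mean, so the 2 labelled knockout DMSO libraries mirror each other and those values cannot show pairing. Over all 15 same-numbered pairs the range was -0.42 to 0.36. These include pairs across genotypes, whose samples pooled different mice. Of 11 libraries 3 correlated best with their own number, among partners of both genotypes. With the replicate block 4 members passed in control (Cpt2 no longer, adjusted p = 0.062) and 4 in labelled knockout islets. That block gave each replicate number the same effect in both genotypes, so it does not model samples paired within a genotype. Where a group was left with 1 library, that library was assumed to vary like the others. Among the members, depth was lowest for Ppara.

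With plain library totals the sign turned for azoramide in control islets Ppara (-0.088), Acadl (-0.14), Acadvl (-0.067), Acsl4 (-0.02), Pparg (-0.052), Ppargc1a (-0.14), and for azoramide in labelled knockout islets Ppara (-0.021), Acadm (-0.15), Acadl (-0.092), Acadvl (-0.019), Ech1 (-0.059), Acot8 (-0.094), Pparg (-0.045), and for genotype with DMSO Cpt1a (0.007), and for genotype with azoramide Acadm (0.034), Hadha (0.03). With the length and GC offset over all exons the sign turned for azoramide in control islets Acadl (-0.44), Etfa (-0.15), Phyh (-0.31), Acsl4 (-0.11), Pdk3 (-0.044), Pparg (-0.15), Rxra (0.001), and for azoramide in labelled knockout islets Acadm (-0.062), Acadl (-0.45), Etfa (-0.094), Ech1 (-0.015), Phyh (-0.30), Ppard (0.054), Pparg (-0.18), and for genotype with azoramide Hadhb (0), and for the interaction Acadl (-0.015). With the replicate block and that offset the sign turned for azoramide in control islets Acadl (-0.44), Etfa (-0.14), Phyh (-0.31), Acsl4 (-0.11), Pdk3 (-0.032), Pparg (-0.15), and for azoramide in labelled knockout islets Acadm (-0.066), Acadl (-0.45), Etfa (-0.095), Ech1 (-0.075), Acot8 (-0.098), Phyh (-0.32), Ppard (0.089), Pparg (-0.27), and for genotype with azoramide Hadhb (-0.001), and for the interaction Acadl (-0.012). With the principal transcript offset the sign turned for azoramide in control islets Acadl (-0.29), Etfa (-0.17), Phyh (-0.23), Pparg (-0.24), Rxra (0.059), and for azoramide in labelled knockout islets Cpt2 (0.012), Acadm (-0.21), Acadl (-0.30), Etfa (-0.13), Ech1 (-0.13), Acot8 (-0.082), Phyh (-0.22), Pparg (-0.29), and for genotype with azoramide Acadm (0.003), and for the interaction Acadl (-0.015). With the replicate block alone the sign turned for azoramide in labelled knockout islets Acot8 (-0.044). With DESeq2 size factors the sign turned for azoramide in labelled knockout islets Cpt2 (0.002). With no filter on low counts the sign turned for azoramide in labelled knockout islets Cpt2 (0.001). With the DESeq2 Wald test the sign turned for azoramide in labelled knockout islets Cpt2 (0.003). Without the 2 libraries that stood apart (control DMSO 2, azoramide 3 of the labelled knockout) the sign turned for azoramide in labelled knockout islets Acot8 (-0.085), and for genotype with azoramide Acadm (0.032), Hadha (0.006), and for the interaction Ppara (-0.38), Hadha (0.002). Leaving out each library in turn, the values that changed sign in some run are given by their lowest and highest: for azoramide in control islets these were Ppara (-0.29 to 0.62), Acadl (-0.007 to 0.061), Ppargc1a (-0.22 to 0.62); for azoramide in labelled knockout islets these were Ppara (-0.17 to 0.51), Cpt2 (-0.04 to 0.031), Acadm (-0.056 to 0.051), Acot8 (-0.085 to 0.15), Pparg (0 to 0.17); for genotype with DMSO these were Ppara (-0.038 to 0.89), Cpt1a (-0.086 to 0.072), Cpt2 (-0.006 to 0.065), Hadha (-0.019 to 0.053); for genotype with azoramide these were Pdk4 (-0.06 to 0.23), Acadm (-0.074 to 0.032), Hadha (-0.062 to 0.017), Hadhb (-0.005 to 0.065); for the interaction these were Ppara (-0.49 to 0.43), Acadl (-0.014 to 0.07), Acadvl (-0.02 to 0.099), Hadha (-0.078 to 0.007). None of these leave-one-out values changed sign for a result past the threshold. The fit on only the groups compared cannot give an interaction and was not run for it.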
